A study of Mus musculus with 2 samples.

Results

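Transcripts of 37 mouse genes of the NF-kB pathway were followed in single cells of 2 cultures of myeloid-derived suppressor cells, a mix of immature neutrophil- and monocyte-lineage cells known for holding T cells in check. The 37 genes were taken by symbol from a list with 4 roles: 6 inhibitors, 5 subunits of the factor itself, 12 signalling and feedback genes and 14 inflammatory targets. All 37 symbols were found among the 32285 genes of the deposited tables. Both cultures were differentiated in vitro with IL-6 and GM-CSF at 40 ng/ml each and were captured on day 4. One culture was grown with the vehicle DMSO and the other with 50 nM selinexor, a small molecule that blocks the nuclear export receptor exportin 1. Live CD11b+ cells were sorted from each culture before droplet capture. The labels give no strain, tissue of origin or number of animals. Each group is 1 library without replicates. No test could be run, and every interval covers counting error only.

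NF-kB factors are dimers of the proteins encoded by Nfkb1, Nfkb2, Rel, Rela and Relb. In resting cells the IkB proteins, IkB-alpha from Nfkbia foremost, hold the dimers in the cytoplasm. Signals from receptors for TNF, IL-1 or microbial products activate IkB kinases, IkB is degraded, and the dimers switch on inflammatory genes together with their own inhibitors. Newly made IkB-alpha enters the nucleus, strips dimers from DNA and is carried back out by exportin 1, which links the pathway to the target of selinexor. In neutrophils and monocytes the pathway is known for driving cytokines such as IL-1 beta and TNF and for supporting survival.

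The filters kept 1743 DMSO and 1967 selinexor cells, which carried 14222344 and 12841480 UMIs (unique molecular identifiers, counted molecules). Depth differed between them: the median cell had 7788 UMIs and 2112 genes with DMSO, and 3984 UMIs and 1282 genes with selinexor. No cell barcode was shared between the libraries (0 barcodes). Itgam, which encodes CD11b, had a UMI in 76.0% of DMSO and 68.5% of selinexor cells. Xpo1, which encodes exportin 1, stood at 66.4 CPM (UMIs scaled to a library total of 1000000) with DMSO and 199.98 CPM with selinexor. The summed markers of late neutrophils stood at 121026 and 79721 CPM, those of monocytes at 1633 and 2974 CPM, those of early neutrophils at 1403 and 581 CPM, and those of macrophages at 539 and 467 CPM. Of the 12 late neutrophil markers 1 was at least 1.5-fold higher with selinexor and 6 were lower, and of the 10 monocyte markers 6 were higher and 1 was lower. T cell and NK cell markers stood at or under 1.97 CPM in both libraries. In whole-library values, fewer cells of a type and less RNA per cell cannot be told apart, and the part of the cell mix in them is addressed by values within cell states.

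Nfkbia and other genes of the feedback loop are known to carry binding sites for the factor itself. The stretches shown here hold the NF-kB (kB) consensus, which is 3 G, a purine, 2 bases of any kind, 2 pyrimidines and 2 C, searched on both strands with overlapping matches counted separately. Sequence is from RefSeq, build GRCm38.p6 (mm10), read 5' to 3' on the gene's strand, with matches in capitals. They are shown because they belong to genes of the negative feedback loop and of the factor, with 2 inflammatory targets added. Only stretches with a match were chosen, so the 2 targets are no comparison. Of 14 targets with a window, 3 held a match.
Nfkbia: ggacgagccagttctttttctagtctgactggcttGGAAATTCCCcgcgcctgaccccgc
Nfkbie: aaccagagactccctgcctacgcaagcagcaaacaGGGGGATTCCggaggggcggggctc
Tnip1: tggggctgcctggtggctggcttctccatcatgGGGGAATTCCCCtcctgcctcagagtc
Tnfaip3: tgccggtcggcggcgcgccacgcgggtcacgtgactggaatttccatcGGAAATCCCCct
Rel: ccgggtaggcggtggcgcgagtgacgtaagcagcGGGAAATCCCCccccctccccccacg
Nfkb2: ccccctcggggggccgaaaGGGGCTTTCCc
Sod2: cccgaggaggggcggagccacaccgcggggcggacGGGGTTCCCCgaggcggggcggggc
Ier3: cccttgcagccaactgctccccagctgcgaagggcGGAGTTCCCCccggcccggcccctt

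The Nfkbia stretch lies at chr12:55492652-55492711 on the minus strand, and its match starts 29 bases before the transcription start site. The Nfkbie stretch is at chr17:45555559-45555618 on the plus strand. The Tnip1 stretch, at chr11:54962972-54963031 on the minus strand, holds 3 overlapping matches. The Rel stretch, at chr11:23771036-23771095 on the minus strand, holds 2. The Ier3 stretch is at chr17:35821586-35821645 on the plus strand. These 5 stretches lie outside GENCODE genes. The Tnfaip3 stretch (chr10:19015411-19015470, minus strand) and the Sod2 stretch (chr17:13007721-13007780, plus strand) lie in introns of the annotation. The Nfkb2 stretch (chr19:46304707-46304736, plus strand) lies in an exon of a GENCODE transcript.

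Of the 37 genes, 32 had a promoter window in the RefSeq table, from 250 bases before to 50 bases after the start site. A match was found in 12 of them (37.5%), against 9.55% of the 27025 genes and 8.46% of the 32851 windows in the table. By role, 4 of 5 inhibitors with a window held a match, 2 of 3 subunits, 3 of 10 signalling and feedback genes and 3 of 14 inflammatory targets. Neither Tnf, Il1b, Il1rn, Icam1, Tnfrsf1b, Birc2 nor Birc3, which are described below, held these letters in the window. Nfkbiz, Nfkb1, Relb, Ripk2 and Map3k8 had no entry. A match is a description of the letters in the window, not a measured binding site.

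**Figure D1:**
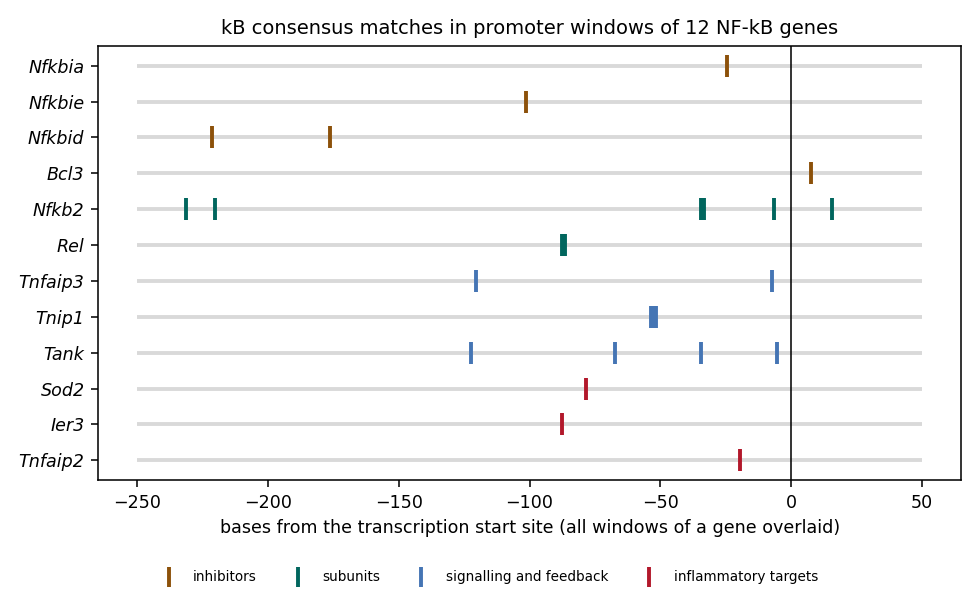
Positions of the kB consensus in the promoter windows of the 12 NF-kB genes that hold it; the horizontal axis gives bases from the transcription start site, grey bars the window and coloured ticks the matches by role. Most matches lie before the start site, the Nfkbia match 29 bases before it.

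In the whole libraries, 2 of 5 subunit genes and 3 of 12 signalling and feedback genes were at least 1.5-fold higher with selinexor and none (0) of either role lower, while 2 of 14 inflammatory targets were higher and 2 lower. All 37 genes had at least 50 UMIs over both libraries, the minimum for a gene to count as measured. Log2 ratios are selinexor over DMSO on the log2(CPM + 1) scale, with an exact 95% interval on the plain count ratio. A gene counted as higher or lower from 1.5-fold on. By that rule 7 of 37 genes (18.9%) were higher, where 9.83% of the 10393 measured genes were. Lower were 2 of 37 (5.41%), where 3.88% of all genes were. The median log2 ratio was 0.27 over the 37 genes and 0.13 over all measured genes. Log2 ratios were above 0 for 30 of 37 genes, as they were for 6638 of the 10393 measured genes (63.9%). Counting intervals lay wholly above 0 for 23 of the 37 genes and wholly below for 7. The like counts over all measured genes were not made, so these 2 counts have no share to be set against.

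**Figure D2:**
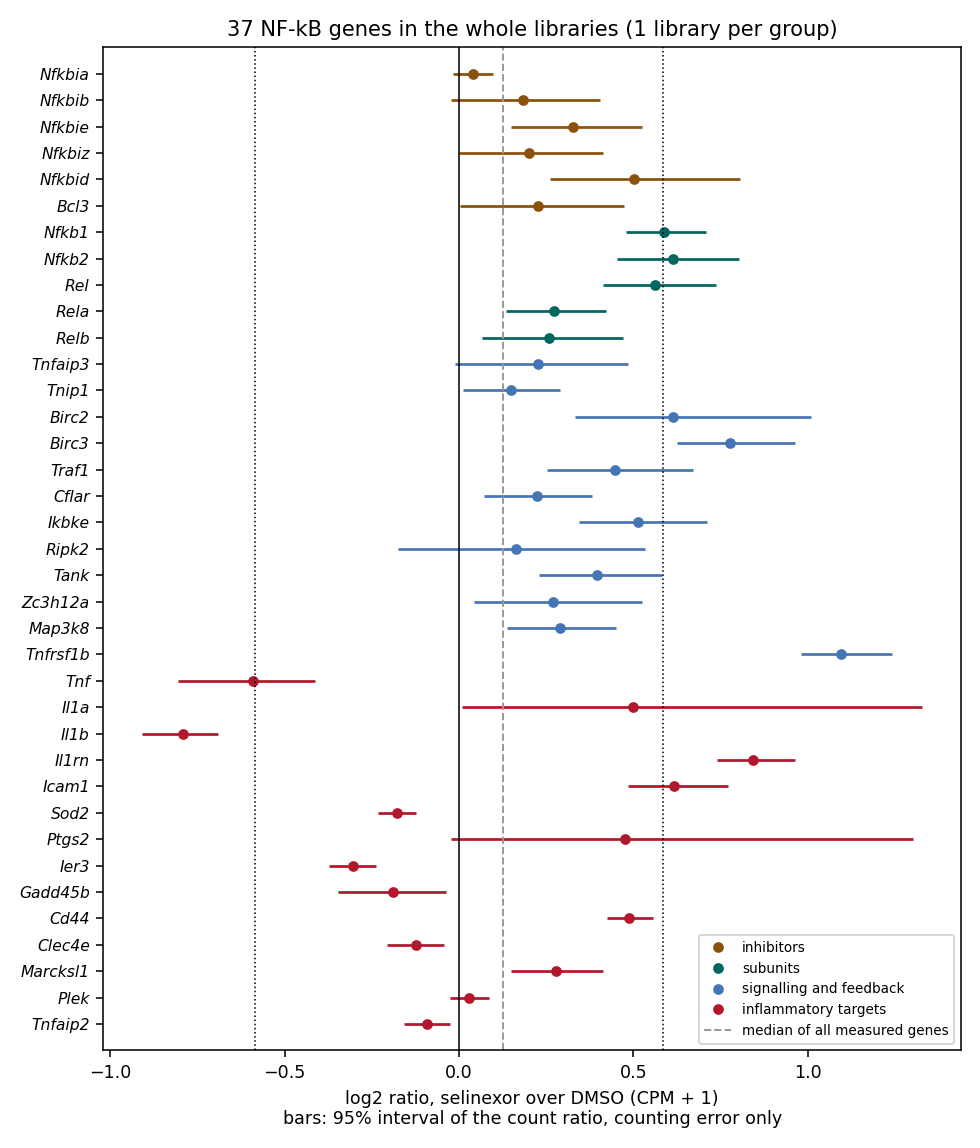
Log2 ratio of each of the 37 genes in the whole libraries, selinexor over DMSO, with 95% counting intervals, coloured by role; dotted lines mark 1.5-fold and the dashed line the median of all measured genes (0.13). Subunits and signalling genes lie at or right of that line, and the targets spread from -0.79 for Il1b to 0.84 for Il1rn.

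The 6 genes listed under the role of inhibitors stayed within 1.5-fold. Nfkbia, which encodes IkB-alpha, the inhibitor that exportin 1 returns to the cytoplasm, had 4907 UMIs (345.0 CPM) with DMSO and 4556 UMIs (354.8 CPM) with selinexor. That is a log2 ratio of 0.04 with an interval from -0.02 to 0.10. Nfkbib, the gene of IkB-beta, stood at 25.3 and 28.9 CPM, and Nfkbie, the gene of IkB-epsilon, at 30.5 and 38.5 CPM, a log2 ratio of 0.33 (0.15 to 0.53). Among the nuclear IkB proteins, Nfkbiz stood at 26.6 and 30.7 CPM and Bcl3 at 20.6 and 24.3 CPM. Nfkbid, the gene of IkBNS, had the highest log2 ratio of the 6, 0.50 (0.26 to 0.81), from 13.99 and 20.25 CPM. All 6 log2 ratios were above 0 on the CPM scale. With TMM or median-of-ratios scaling 5 of 6 were above 0 and Nfkbia was below, at -0.09 and -0.11.

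Of the 5 subunit genes, 2 were past 1.5-fold higher with selinexor, and all 5 log2 ratios and their intervals lay above 0. Nfkb1, the gene of p105/p50, had 1060 UMIs (74.5 CPM) with DMSO and 1444 UMIs (112.4 CPM) with selinexor, a log2 ratio of 0.59 (0.48 to 0.71). For Nfkb2, the gene of p100/p52 in the non-canonical pathway, 468 and 653 UMIs gave 32.9 and 50.9 CPM and a log2 ratio of 0.61 (0.45 to 0.80). These 2 lie just past the 1.5-fold limit of 0.58, and Rel, the gene of c-Rel, lies just short of it at 0.56 (0.41 to 0.74), from 38.7 and 57.7 CPM. Rela, the gene of p65, stood at 53.1 and 64.4 CPM, a log2 ratio of 0.27. Relb stood at 27.4 and 32.9 CPM, a log2 ratio of 0.26. The median of the 5 was 0.56. All 5 stayed above 0 with TMM scaling (median 0.43), where none of the 5 reached 1.5-fold.

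The 12 signalling and feedback genes all had log2 ratios above 0 under each scaling, with a median of 0.34, and 3 of them were past 1.5-fold. Tnfrsf1b (chr4:145213463-145246870, minus strand) encodes TNF receptor 2. It had 729 UMIs (51.3 CPM) with DMSO and 1422 UMIs (110.7 CPM) with selinexor, a log2 ratio of 1.10 (0.98 to 1.24), which was the highest of the 37. Birc3 (chr9:7848699-7873186, minus strand) encodes cIAP2, a ubiquitin ligase at the TNF receptor and a known NF-kB target. It had 472 and 739 UMIs, or 33.2 and 57.5 CPM, a log2 ratio of 0.78 (0.63 to 0.96). Birc2, the neighbouring gene of cIAP1, stood at 8.86 and 14.1 CPM, a log2 ratio of 0.61 (0.33 to 1.01).

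The other 9 genes of this role lay between log2 ratios of 0.15 and 0.51. Ikbke, an IkB kinase relative, stood at 30.3 and 43.7 CPM (0.51), Traf1, an adaptor of TNF receptors, at 23.9 and 32.9 CPM (0.45), and Tank, a TRAF-binding regulator, at 34.0 and 45.1 CPM (0.40). Map3k8, the kinase TPL2 that links the pathway to ERK, stood at 45.1 and 55.3 CPM (0.29). The feedback enzyme gene Tnfaip3, which encodes A20, stood at 18.5 and 21.8 CPM (0.23), and its partner Tnip1 at 59.5 and 66.0 CPM (0.15). Zc3h12a, the gene of the cytokine mRNA nuclease regnase-1, stood at 19.1 and 23.3 CPM (0.27). Cflar, the caspase-8 inhibitor gene, had a log2 ratio of 0.22, and Ripk2, the kinase gene downstream of NOD receptors, 0.16 with an interval that includes 0 (-0.17 to 0.53).

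Among the 14 inflammatory targets, 2 were past 1.5-fold in each direction, with a median log2 ratio of -0.03 and 7 genes on each side of 0. Il1b (chr2:129364570-129371139, minus strand), the gene of IL-1 beta, had 2049 UMIs (144.1 CPM) with DMSO and 1063 UMIs (82.8 CPM) with selinexor. Its log2 ratio of -0.79 (-0.91 to -0.69) was the lowest of the 37. Il1rn (chr2:24336853-24351494, plus strand), the gene of the antagonist that occupies the same receptor without signalling, was higher: 1060 and 1728 UMIs, or 74.5 and 134.6 CPM, a log2 ratio of 0.84 (0.74 to 0.96). Tnf (chr17:35199381-35202007, minus strand) had 581 UMIs (40.9 CPM) with DMSO and 344 UMIs (26.8 CPM) with selinexor, a log2 ratio of -0.59 (-0.81 to -0.41). Icam1 (chr9:21015985-21028817, plus strand), the gene of an adhesion molecule, stood at 49.1 and 75.8 CPM, a log2 ratio of 0.62 (0.49 to 0.77). So the genes of both cytokines were lower in the library in which the genes of the IL-1 antagonist and of a TNF receptor were higher.

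The other 10 targets lay within 1.5-fold. Cd44, the hyaluronan receptor gene, was the highest among the well counted ones, at 243.2 and 341.7 CPM (log2 ratio 0.49, 0.43 to 0.56). Ier3, an early response gene, was the lowest, at 298.6 and 241.7 CPM (-0.30, -0.37 to -0.24). Sod2, the mitochondrial superoxide dismutase gene, stood at 437.6 and 386.6 CPM (-0.18) and Gadd45b, a stress gene, at 54.8 and 48.0 CPM (-0.19). Clec4e, the gene of the receptor Mincle, had a log2 ratio of -0.12, Tnfaip2 -0.09, Plek, the gene of pleckstrin, 0.03 and Marcksl1 0.28. Il1a and Ptgs2, the gene of cyclooxygenase-2, were near the limit of detection, with 35 UMIs each with DMSO and 50 and 49 UMIs with selinexor. The intervals of those 2 reached from 0.01 to 1.33 and from -0.02 to 1.30.

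Several of these counts rest on the scaling and on the cell mix. TMM scaling moved the median of all genes by -0.12 and the share of higher among called genes from 71.7% to 49.0%, and median-of-ratios scaling by -0.14 and to 46.8%. Both left 3 of the 37 genes higher (Tnfrsf1b, Birc3 and Il1rn) and 2 lower (Tnf and Il1b), where 5.91% and 6.15% of all genes were with TMM and 5.62% and 6.38% with median-of-ratios scaling. When both libraries were given the same mix of cell states, 5 of 37 were higher and 2 lower, where 8.91% and 8.73% of all genes were. In that setting Tnf stood at -0.82, Il1b at -0.96, Birc3 at 1.07 and Birc2 at 0.72, while Il1rn moved to 0.48, Tnfrsf1b to 0.56, Nfkb1 to 0.32 and Icam1 to 0.32. Cluster 13, described below, held 5 DMSO and 34 selinexor cells. It gave 15.4% of Nfkb1, 14.1% of Nfkb2, 24.3% of Birc2 and 10.5% of Icam1 UMIs of the selinexor library. The DMSO shares were 2.36%, 2.35%, 1.59% and 1.72%. For Birc3, Tnfrsf1b and Il1rn the shares were 5.41%, 1.48% and 0.35% with selinexor, and 1.06%, 0.55% and 0.47% with DMSO. Ratios without cluster 13 were not computed. Without the clusters of which 1 library holds over 90% of the cells, an alternative chosen after seeing the data, 14 of 35 genes were higher and none (0) lower, where 9.99% and 5.04% of all genes were. Il1b then stood at 0.03 and Tnf at -0.12. This setting still holds cluster 0 (89.2% selinexor cells) and cluster 13 (87.2%), so the cell mix stays unequal. Within cluster 0, Il1b had a log2 ratio of -1.25, and Tnf -0.61 with an interval that includes 0.

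The share of cells with a UMI followed the same directions for Il1b, Tnf, Il1rn and Tnfrsf1b. To compare at equal depth, each cell was thinned to 1500 UMIs, which left 1485 DMSO and 1275 selinexor cells and left out 258 and 692 shallower ones. The thinned cells are therefore also a different cell mix. Of cluster 0, a low-UMI cluster described below, thinning kept 17 of 80 DMSO and 63 of 661 selinexor cells. Il1b was seen in 14.3% (Clopper-Pearson interval 12.6 to 16.2%) of thinned DMSO and 9.02% (7.50 to 10.7%) of thinned selinexor cells, and in 36.4% and 24.8% unthinned. Tnf was seen in 5.32% (4.23 to 6.59%) and 3.29% (2.38 to 4.43%), and in 23.5% and 12.9% unthinned. Il1rn was seen in 11.99% (10.4 to 13.7%) and 18.7% (16.64 to 20.998%), and Tnfrsf1b in 6.53% (5.33 to 7.91%) and 15.5% (13.6 to 17.6%). Unthinned, Il1rn was seen in 31.7% and 38.8% and Tnfrsf1b in 27.3% and 38.5%. Early neutrophil-like cells, where Il1b was lowest, had an Il1b UMI in 6.25% of 80 DMSO and 6.90% of 29 selinexor cells, at median depths of 13878 and 14792 UMIs. For Nfkbia the thinned shares, 37.5% (35.0 to 40.0%) and 35.5% (32.9 to 38.2%), had overlapping intervals.

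To separate the cell mix from levels within cells, all cells were clustered together without the 37 genes, which gave 14 clusters. The mix differed between the libraries. Cluster 0, whose cells had medians of 1132 and 1049 UMIs and which was late neutrophil-like by 5 of 12 markers, held 4.59% of DMSO and 33.6% of selinexor cells. Cluster 1, late neutrophil-like with Mmp9 and Cxcr2 leading, held 23.2% and 1.98%, and cluster 4, unnamed and led by Csta3, held 19.7% and 1.12%. The macrophage-like cluster 8 held 8.78% and 0.25%, and the monocyte-like cluster 2, led by Fn1 and also high in the macrophage marker Mrc1, held 1.15% and 20.4%. Since libraries hold different states, 11 states with at least 20 cells in each library were compared, and 5 of them had at least 80 cells in each, a limit set after the cluster sizes were seen.

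The 5 well filled states were cluster 0, cluster 3 (unnamed, with 10 of 12 late and 5 of 7 intermediate neutrophil markers at least 2-fold higher than in the other cells), cluster 5 (cycling cells of no named type), cluster 6 (cycling, intermediate neutrophil-like) and cluster 7 (intermediate neutrophil-like). Well filled refers to cell numbers only. Cluster 0 had 80 DMSO cells with 112347 UMIs in all, fewer than the 187536 UMIs of the 20 DMSO cells in cluster 2. Within a state, a gene with at least 20 UMIs over both libraries was counted as measured. In cluster 0, 11 of 35 such genes were past 1.5-fold higher with selinexor and 5 lower, where 21.4% and 17.1% of all genes were. In cluster 3, 11 of 33 were higher and 1 lower, where 22.8% and 8.13% of all genes were. In cluster 5, 3 of 35 were higher and 5 lower, against 14.6% and 7.02%. In cluster 6, 6 of 33 were higher and 6 lower, against 8.12% and 10.5%. In cluster 7, 3 of 25 were higher and 2 lower, against 8.55% and 16.7%. Over all 11 states, 68 of 352 gene and state pairs were higher and 60 lower, where 15.1% and 14.9% of all such pairs were, and the shares for the 37 genes were 19.3% and 17.0%. The spread over genes and states was thus close to that of all genes in both directions.

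**Figure D3:**
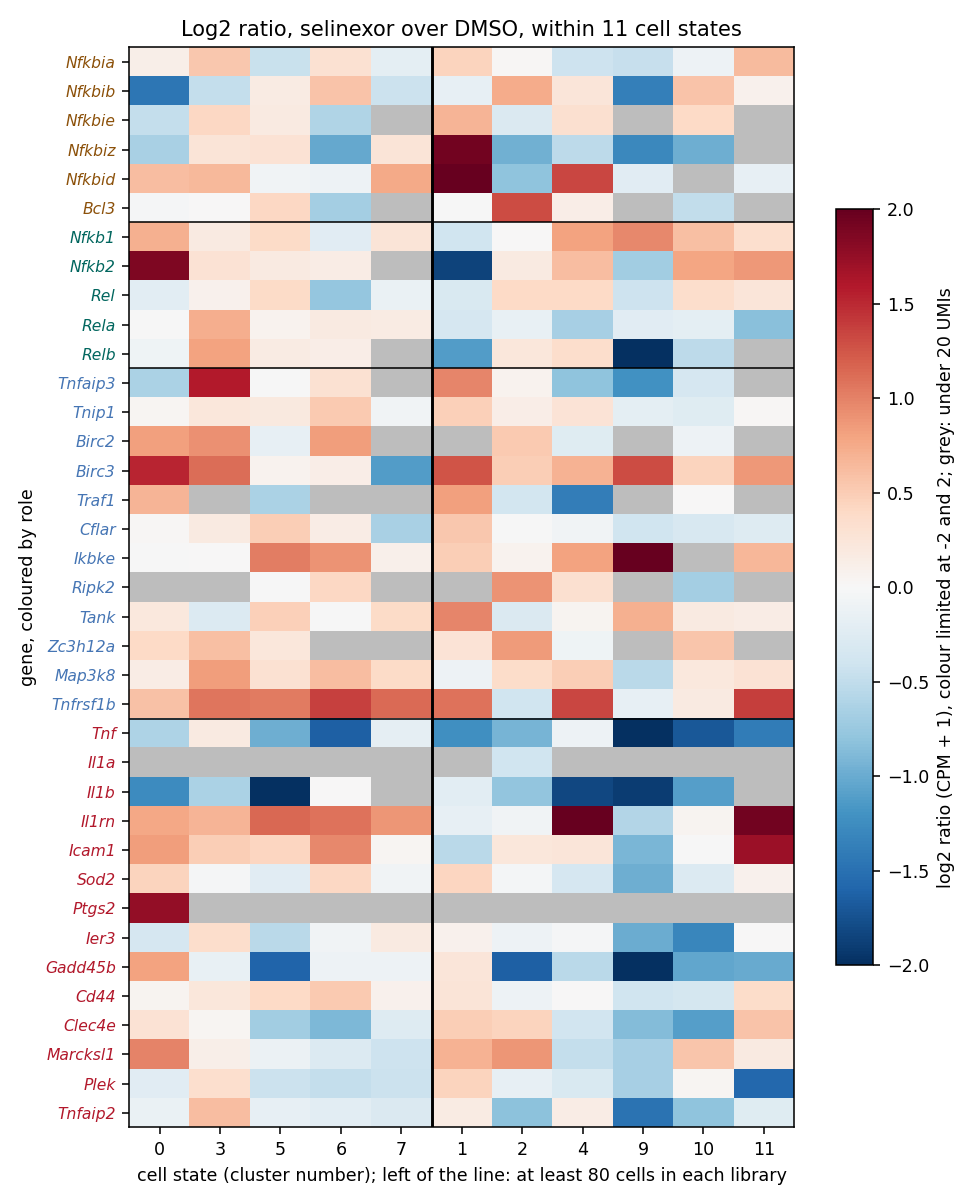
Log2 ratio of the 37 genes (rows, coloured by role) in 11 cell states (columns), selinexor over DMSO; red is higher and blue lower with selinexor, and grey marks under 20 UMIs. The Tnf and Il1b rows are mostly blue, the Tnfrsf1b row is red in 9 of 11 states and the Il1rn row in 8.

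Some single genes kept a direction in most states. The states share both libraries, and the share of all genes that keep a direction as often over the 11 states was not computed. Tnf had a log2 ratio below 0 in 10 of 11 states and was at least 1.5-fold lower in 8. Among the 8, cluster 1 (116 and 3 UMIs, -3.54 to 0.34) and cluster 2 (6 and 79 UMIs, -2.15 to 0.52) had intervals that include 0. Clusters 10 and 11 had 5 and 3 selinexor UMIs of Tnf. In the cycling cluster 5, Tnf stood at 22.7 CPM with DMSO and 11.01 CPM with selinexor (58 and 26 UMIs), and in the cycling intermediate neutrophil-like cluster 6 at 33.6 and 10.1 CPM (46 and 11 UMIs). The log2 ratios were -0.98 (-1.77 to -0.35) and -1.64 (-2.83 to -0.76). Cluster 3 was the state above 0, at 57.2 and 64.8 CPM with an interval that includes 0. In cluster 0, Tnf stood at 204.7 and 133.3 CPM, with an interval that also includes 0 (-1.28 to 0.10).

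Il1b was at least 1.5-fold lower in 7 of the 9 states in which it was measured. Cluster 0 had 1157 CPM with DMSO and 484.9 CPM with selinexor, from 130 and 360 UMIs, a log2 ratio of -1.25 (-1.55 to -0.95). In cluster 3 it stood at 188.7 and 121.3 CPM (-0.63, -1.04 to -0.24) and in cluster 5 at 55.9 and 10.6 CPM (-2.29, -3.07 to -1.78). The dendritic cell-like cluster 10, led by Ccl17 and MHC class II genes and also high in C1qa and C1qb, had 124.5 and 57.3 CPM (-1.11). Cluster 6 had 10.9 and 11.02 CPM. In cluster 1, which Il1b itself helps to mark, it stood at 537.7 and 465.1 CPM. Without the clusters held to over 90% by 1 library the value over the remaining cells, still an unequal mix, was 0.03, as given above. Clusters 1 and 8 gave 31.4% and 24.5% of Il1b UMIs in the DMSO library and 3.20% and 0.56% in the selinexor library, in which cluster 0 gave 33.9% and cluster 2 38.9%.

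Il1rn was at least 1.5-fold higher with selinexor in all 5 well filled states. It stood at 186.9 and 319.2 CPM in cluster 0, at 240.1 and 385.9 CPM in cluster 3 and at 30.5 and 68.6 CPM in cluster 5. Clusters 6 and 7 had 41.6 and 89.1 CPM, and 64.4 and 118.9 CPM. The 5 log2 ratios ran from 0.68 to 1.15 and all 5 intervals lay above 0. The unthinned share of cells with an Il1rn UMI was higher with selinexor in clusters 0, 5, 6 and 7. In cluster 3 it was 55.0% with DMSO and 53.8% with selinexor, and 35.5% and 36.1% after thinning. Over the 11 states, Il1rn was higher in 7 and lower in 1, cluster 9, an unnamed cluster that Il1rn itself helps to mark. In the monocyte-like cluster 2 it stood at 106.6 and 101.6 CPM, from 20 DMSO and 402 selinexor cells, with an interval that includes 0.

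Tnfrsf1b had log2 ratios above 0 in all 5 well filled states and was past 1.5-fold in 4. It stood at 70.5 and 148.5 CPM in cluster 3, 39.5 and 81.8 CPM in cluster 5, 17.5 and 46.8 CPM in cluster 6 and 16.4 and 37.1 CPM in cluster 7. Cluster 0, with 124.6 and 187.2 CPM, lay on the 1.5-fold limit with an interval that includes 0. Early neutrophil-like cells (cluster 11) showed 27.5 and 73.2 CPM, from 32 UMIs each. In cluster 2, which gave 46.6% of Tnfrsf1b UMIs of the selinexor library and 4.66% of those of the DMSO library, the gene stood at 181.3 and 137.3 CPM. Under TMM and median-of-ratios scaling both Il1rn and Tnfrsf1b stayed above 0 in all 5 states.

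**Figure D4:**
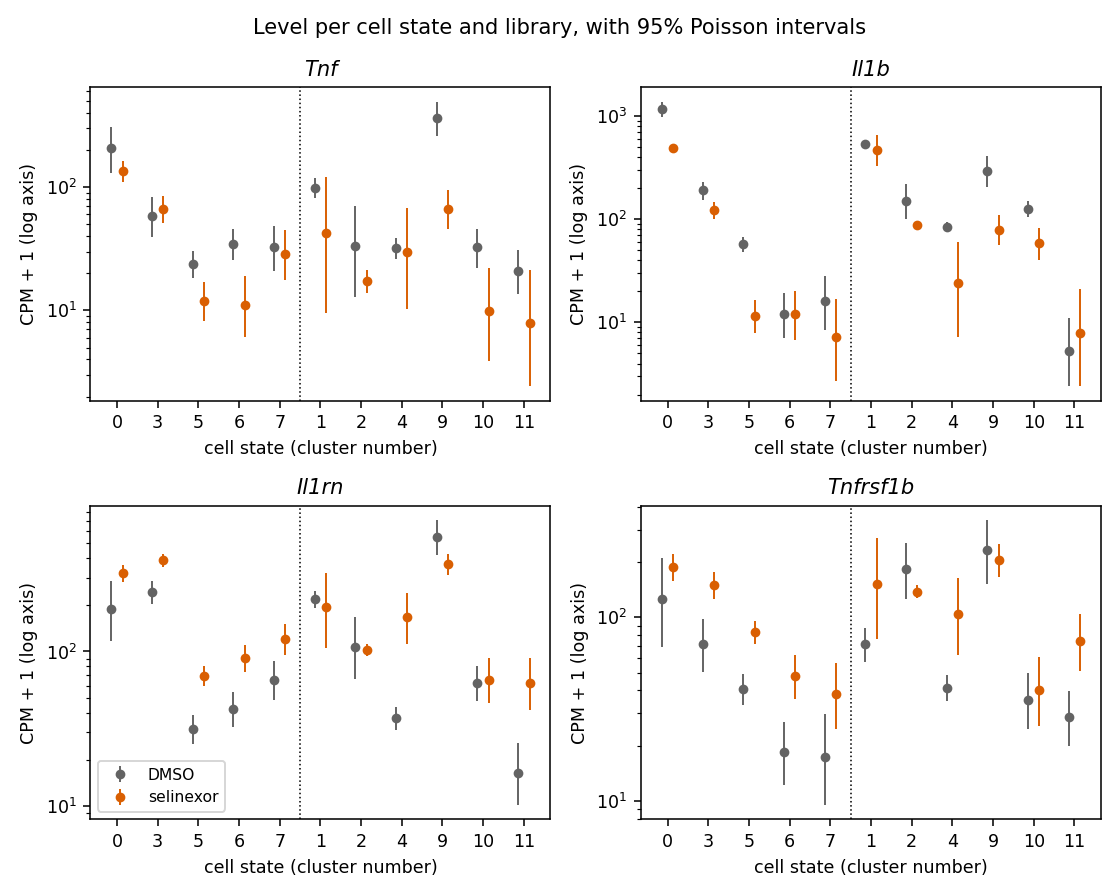
CPM + 1 (log axis) of Tnf, Il1b, Il1rn and Tnfrsf1b in 11 cell states, DMSO in grey and selinexor in orange, with 95% Poisson intervals; states left of the dotted line have at least 80 cells in each library. Il1rn is above DMSO in all 5 of those states, and Tnf and Il1b are mostly below.

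Of the 25 genes measured in all 5 well filled states, 5 had log2 ratios above 0 in every one: Il1rn, Tnfrsf1b, Map3k8, Icam1 and Cd44. Among all genes, 7.95% of the 3864 genes measured in all 5 were. None of the 25 was below 0 in all 5 (0%, where 7.61% of all genes were). The 5 states share both libraries, so their directions are not independent. Map3k8 was past 1.5-fold in 2 of the 5 (clusters 3 and 6), Icam1 in 2 (clusters 0 and 6) and Cd44 in none (0), with log2 ratios from 0.06 to 0.52.

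The inhibitors and subunits did not share a direction across states. Nfkbia was within 1.5-fold in all 5 well filled states, above 0 in 3 and below in 2, and was past it in 1 of 11 states, the early neutrophil-like cluster 11 (175 and 102 UMIs, 0.63). Nfkbiz was at least 1.5-fold lower in 5 of 10 states and higher in 1, cluster 1 (42 and 10 UMIs, 1.93). Nfkbid was higher in 5 of 10 and lower in 1. Nfkb1 was above 0 in 9 of 11 states and past 1.5-fold in 4, among them the dendritic cell-like cluster 10 (103 and 92 UMIs, 0.61, 0.19 to 1.03). Nfkb2 was above 0 in 8 of 10 states and past 1.5-fold higher in 4, with 41 and 42 UMIs in cluster 10 (0.80, 0.15 to 1.47), and lower in 2. Rel was past 1.5-fold higher in none (0) of 11 states and lower in 1, cluster 6 (42 and 19 UMIs, -0.78). For Rel the whole-library log2 ratio of 0.56 therefore stands beside a median of 0.09 over the 11 states.

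Among signalling genes, Birc3 was higher in 6 of 11 states and lower in 1. It stood at 7 and 134 UMIs in cluster 0 (1.52, 0.45 to 2.88) and at 28 and 112 UMIs in cluster 3 (1.12, 0.53 to 1.79). Ikbke was higher in 5 of 10 states, among them cluster 5 (58 and 111 UMIs, 1.02, 0.58 to 1.54) and cluster 6 (37 and 56 UMIs, 0.90, 0.30 to 1.57). Tnfaip3 was higher in cluster 3 (11 and 62 UMIs, 1.58, 0.69 to 2.70) and in 1 other state, and lower in 3. Tnip1 was within 1.5-fold in all 11.

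Of the remaining targets, Gadd45b was lower in 5 of 11 states and higher in 1. In cluster 5 it had 144 UMIs with DMSO and 42 with selinexor (-1.61, -2.19 to -1.16), and in cluster 10 it had 29 and 8 (-1.03). Clec4e was lower in 4 states, among them cluster 5 (600 and 340 UMIs, -0.70, -0.90 to -0.51) and cluster 6 (62 and 26 UMIs, -0.89). Ier3 was lower in 2 of 11 states, with 358 and 84 UMIs in cluster 10 (-1.31, -1.68 to -0.97). Tnfaip2 was higher in cluster 3 (122 and 343 UMIs, 0.62) and lower in cluster 10 (320 and 107 UMIs, -0.80). In the unnamed cluster 9, led by Gpnmb, Ccl3 and Ccl4, 16 of 29 measured genes were lower and 4 higher, where 22.2% and 20% of all genes were. There Tnf had 41 and 31 UMIs (-2.46) and Relb 12 and 10 (-2.28), from 46 DMSO cells with a median of 1404 UMIs and 102 selinexor cells with a median of 4269.

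Across clusters, with the cells of both libraries summed, most of the 37 genes peaked in 1 of 2 clusters. The clusters in which all measured genes peak were not counted, so whether this is particular to the 37 genes cannot be told. Of the 37 genes, 17 had their highest level in the low-UMI cluster 0 and 13 in cluster 13, with 4 in cluster 9 and 1 each in clusters 1, 3 and 8. Selinexor cells make up 89.2% of cluster 0 and 87.2% of cluster 13, so these sums are mostly selinexor values. Within the DMSO cells, over the 12 clusters with at least 20 of them, 14 genes were highest in cluster 0 and 14 in cluster 9. Within the selinexor cells, over 13 such clusters, 14 were highest in cluster 13, 11 in cluster 0 and 7 in cluster 1. Tnf stood at 363 CPM in cluster 9 and 205 CPM in cluster 0 with DMSO, and at 65.4 and 133 CPM with selinexor. Cluster 13 was a dendritic cell-like cluster of 5 DMSO and 34 selinexor cells, led by Ccl22, Ccl5 and Ccr7. Rel stood at 583 CPM there and at 110.0 CPM in the next cluster, and Nfkb1 at 558 CPM there and at 129 CPM in the next. Nfkb2 (232 CPM), Relb (239 CPM), Traf1 (266 CPM) and Icam1 (257 CPM) also peaked in cluster 13. Tnf was near 0 in it, with 1 UMI in the DMSO and 0 in the selinexor cells, and Clec4e stood at 11.3 CPM. This cluster gave 29.6% of Rel UMIs and 15.4% of Nfkb1 UMIs of the selinexor library, and 7.26% and 2.36% of those of the DMSO library.

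In cluster 0, Nfkbia stood at 1032 CPM, Ier3 at 824 CPM, Tnfaip2 at 831 CPM and Il1b at 573 CPM. The name of cluster 0 is weakly based: the mean log2 ratio of its 12 late neutrophil markers against the other cells was 0.11, and 1 of them was among its 10 leading genes. The late neutrophil-like cluster 1 followed for Il1b, at 534 CPM, and for Ier3, at 723 CPM. The lowest level lay in the early neutrophil-like cluster 11 for 16 of 37 genes, again without a like count over all genes. Among the 16 were Nfkbia at 173 CPM and Il1b at 5.004 CPM. In cluster 1, Nfkbia stood at 602 CPM. Depth moves with this order, since cells of cluster 1 had medians of 2152 and 1287 UMIs and those of cluster 11 13878 and 14792 UMIs, and the part of depth in it was not tested.

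**Figure D5:**
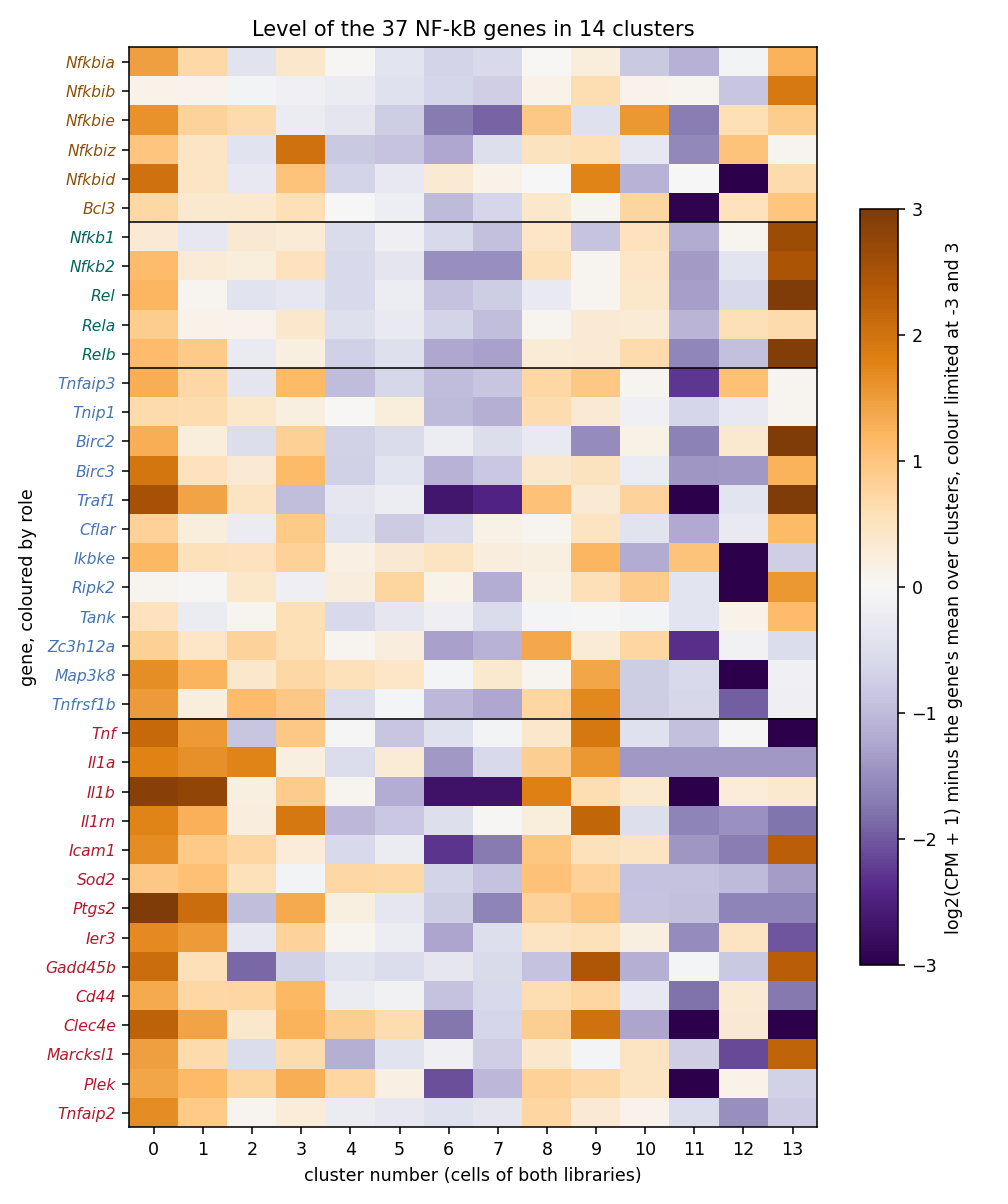
Level of the 37 genes in 14 clusters, cells of both libraries summed, as log2(CPM + 1) minus the mean of each gene over the clusters; brown is high and purple low. Clusters 0 and 13 hold the highest level of 17 and 13 genes, and cluster 11 the lowest of 16. Like counts over all genes were not made.

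Other genes of the pathway, 93 receptors, adaptors, kinases, terminators and targets, gave a wider spread in the whole libraries. Of 86 with enough UMIs, 13 (15.1%) were past 1.5-fold higher and 9 (10.5%) lower, where 9.83% and 3.88% of all genes were, with a median log2 ratio of 0.16. Ccl5 had 91 UMIs with DMSO and 1526 with selinexor (4.02) and Ccl22 had 236 and 2572 (3.52), both genes that lead cluster 13, as does Cd83, with 31 and 166 (2.13). Map3k14, which encodes NIK, the kinase of the non-canonical branch, had 108 and 267 UMIs (1.34, 1.13 to 1.79). Olr1, an oxidised lipoprotein receptor gene, had 91 and 224 (1.32), and Irak2, the kinase gene below IL-1 and Toll-like receptors, 217 and 412 (1.02).

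The 6 lowest were Nos2, Cxcl2, Cxcl3, Ccl17, Saa3 and Il1rap. Nos2, the inducible nitric oxide synthase gene, had 59 UMIs with DMSO and 0 with selinexor. With a floor of 3 counts over the library in place of 0, that is 17.8-fold lower. Its exact counting interval ends at a log2 ratio of -3.81, a smaller fold, so 17.8-fold is not a lower bound. Cxcl2 had 8998 and 2048 UMIs (-1.98) and Cxcl3 332 and 87 (-1.65), both neutrophil-attracting chemokines. Ccl17, a leading gene of cluster 10, had 2668 and 819 (-1.54). Saa3, a serum amyloid gene, had 9036 and 3644 (-1.16), and Il1rap, the accessory chain of the IL-1 receptor, 468 and 205 (-0.999). With the same cell mix, 18 of 84 of these genes were lower and 11 higher, where 8.73% and 8.91% of all genes were.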

How the data were processed

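The deposited matrices hold raw UMI counts for each gene in each cell. The authors used Cell Ranger 6.1.2 and genome build mm10, per the submitters' processing notes. For the annotation release and the cell calling rule, nothing is given in the sources used here. Kept were cells with 200 or more genes and less than 10% mitochondrial UMIs (1743 of 1784 DMSO and 1967 of 1989 selinexor barcodes). No doublet caller was used, and leaving out the 2% of cells with most UMIs was an alternative. Counts were summed per library or state and scaled to CPM of the gene total. Ratios are log2(CPM + 1) with exact conditional binomial intervals. The comparison code was tested on simulated data.

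Cells were clustered with scanpy 1.11.5 and leidenalg 0.10.2 without the 37 genes (2000 variable genes, 30 principal components, 15 neighbours, Leiden resolution 1.0). Clusters were named from fixed marker lists. Only cell type classes with at least 3 markers 2-fold higher were considered, and the one with the highest mean log2 ratio was taken. A cluster stayed unnamed if that mean was not above 0, or if a different class supplied more of the 10 leading genes. In cluster 3 the intermediate neutrophil mean was highest (1.90, late neutrophil 1.84), but late markers supplied 2 leading genes and intermediate ones 1. In cluster 9 the macrophage mean was -0.67. In the text, all 37 genes are accounted for by role, with up to 5 highest and 5 lowest per state and 6 highest and 6 lowest of the other pathway genes. The genes and lists were chosen with earlier results of these data known. Gene positions are from GENCODE, build mm10, where 37 of 37 identifiers matched. Exons of 9 of the 37 genes overlap a gene on the opposite strand and none (0) one on the same strand. Alternatives were 2 scalings, stricter filters, equal weight per cell, thinning, other thresholds, other clusterings and leaving out clusters.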

Additional observations from a re-analysis of the deposited data

Results flagged for a closer look

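For 2 genes a well filled cell state was at least 1.5-fold higher and another at least 1.5-fold lower, with counting intervals that exclude 0 on both sides; each group is 1 library. Birc3 was at least 1.5-fold higher with selinexor in cluster 0 (log2 ratio 1.52) and cluster 3 (1.12) and lower in the intermediate neutrophil-like cluster 7 (-1.12), where it had 23 UMIs with DMSO and 9 with selinexor. Gadd45b was higher in cluster 0 (0.80) and lower in the cycling cluster 5 (-1.61). These differences were not tested. Tnfaip3 (1.58 in cluster 3 and -0.64 in cluster 0) and Traf1 (0.68 in cluster 0 and -0.63 in cluster 5) were also past 1.5-fold both ways, but the intervals of both in cluster 0 include 0 (-1.72 to 0.59 and -0.29 to 1.86).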

How the results depend on the processing

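With 1 library per group, alternatives show only how the values depend on processing. No paired analysis was possible because each group holds 1 library and replicate numbers were given in accession order. Of the 37 genes, the number at least 1.5-fold higher was 3 with TMM scaling, 3 with median-of-ratios scaling, 4 with a cell minimum of 1000 genes and less than 5% mitochondrial UMIs, 3 with a pseudocount of 5, 1 at 2-fold and 14 without clusters held to over 90% by 1 library, against 7. The number lower was 1 with cells weighted equally, 1 with cells thinned to 1500 UMIs, 1 with a pseudocount of 5, 1 without the 2% of cells with most UMIs, 0 at 2-fold and 0 without those clusters, against 2. The counts of all genes moved as well, from 1022 higher and 403 lower of 10393. Higher were 614 and 584 with the 2 scalings, 1012 of 10267 with the stricter filter, 472 with a pseudocount of 5 and 213 at 2-fold. Lower were 656 with equal weights, 383 of 6634 after thinning, 226 with a pseudocount of 5 and 117 at 2-fold. Without the top 2% of cells 408 of 10287 were lower, and without those clusters 954 of 9549 were higher and 481 lower. Without those clusters the median of the 37 genes was 0.51, and Il1b stood at 0.026, the single reversal of a called gene. The remaining cells were still an unequal mix. Of the other pathway genes, 7 were higher and 5 lower at 2-fold, 24 were higher without those clusters, and 18 were lower with the same cell mix, against 13 and 9. Of gene and state pairs, 42 were higher with the stricter cell filter, 30 higher and 25 lower after thinning, 39 lower with a minimum of 50 UMIs and 26 lower at Leiden resolution 0.5, against 68 and 60. These settings measured 255, 124, 264 and 210 pairs, against 352, so fewer pairs could be counted. For all genes, pairs were counted in the main setting only. The cause of the other changes was not tested. The directions of the other 8 called genes held in 12 of 12 alternatives, with Tnf between -0.96 and -0.12 and Tnfrsf1b between 0.56 and 1.38. Changing the pseudocount, the UMI minimum or the fold cannot turn a direction, so agreement in such settings was fixed in advance. Depth limits Il1a and Ptgs2 most, and most values in cluster 0 rest on fewer than 30 DMSO UMIs.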

Other observations

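In the basophil or mast cell-like cluster 12, 18 DMSO and 23 selinexor cells, too few to compare, held 0 and 6 Il1b UMIs and 1 Tnf UMI each. In the macrophage-like cluster 8, which had 153 DMSO and 5 selinexor cells and so entered no comparison within states, Tnfrsf1b had 189 UMIs and Nfkb1 217 UMIs in the DMSO cells, 25.9% and 20.5% of that library's UMIs of these genes.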
